A study of Mus musculus with 17 samples.

Results

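Somatostatin and its receptors are described here in single cells of the mouse hypothalamus. The set holds 5 genes of the 23284 in the count table: Sst, which encodes the peptide, and the receptor genes Sstr1, Sstr2, Sstr3 and Sstr4. They were taken by name as rows of the table, and all 5 are in it. The related genes Sstr5, a further receptor, and Cort, which encodes cortistatin, are given for comparison.

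RNA was captured by Drop-seq, in which each transcript receives the barcode of its droplet and a unique molecular identifier (UMI). The animals were B6D2F1 mice, the cross of a C57BL6 female with a DBA2 male. Normal mice (n = 5) were fed normally, and food-deprived mice (n = 3) went without food for 24 h. Each mouse was carried by 1 to 4 libraries, 17 in all, in 5 batches. Batch 0 holds normal 1 and 2, batch 1 holds normal 3 and food-deprived 1, batch 2 holds normal 4 and food-deprived 2, batch 3 holds normal 5, and batch 4 holds food-deprived 3. No age or sex of the animals is stated in the labels.

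Somatostatin is a small cyclic peptide hormone and neurotransmitter. Neurosecretory neurons near the third ventricle release it into the portal blood of the pituitary, where it restrains growth hormone secretion, and many other neurons, often inhibitory ones, use it locally. Its receptors couple mainly to Gi and Go proteins, which lower cyclic AMP, open inwardly rectifying potassium channels and close calcium channels. Cortistatin binds the same receptors.

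The hormone is cut from the C-terminal end of its precursor. The last 14 codons of the coding sequence (mouse GENCODE vM21 transcript) are shown because they are the part of the gene that becomes the shorter form of the peptide. Capitals mark the codons of the cysteines at positions 3 and 14, which close the ring.

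Sst, last 14 codons: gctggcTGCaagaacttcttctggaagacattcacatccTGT

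The 300 bases from 250 before to 50 after the Sst start, chr16:23890795-23891094 on the minus strand (RefSeq, build GRCm38.p6), are shown because Sst is the member whose level differed most between clusters and mice. Capitals mark the cyclic AMP response element motif TGACGTCA, which begins 48 bases before the start. The motif reads the same on both strands.

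Sst promoter: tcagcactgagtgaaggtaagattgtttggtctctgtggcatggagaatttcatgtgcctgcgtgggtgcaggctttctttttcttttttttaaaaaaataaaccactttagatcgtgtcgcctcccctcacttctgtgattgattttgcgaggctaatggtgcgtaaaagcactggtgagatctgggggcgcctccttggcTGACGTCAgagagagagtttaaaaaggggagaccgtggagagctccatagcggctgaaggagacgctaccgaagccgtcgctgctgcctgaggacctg

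Promoters of 4 of the 5 members were matched in that table, and the motif was found in those of Sst and Sstr2, where it begins 58 bases before the start. It was not found in the windows of Sstr3 and Sstr4. Among all 32851 windows of this length, 588 (1.79%) hold the motif. A match is a description of the letters only.

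Of the cells with a deposited annotation, 14276 were assigned to a library. A further 161 were left out because the barcode occurs in several libraries of 1 mouse. Across libraries, 120 barcodes occurred more than once, and 201 pairs of barcodes within a library differ by 1 lost base and may each be 1 bead. Totals per mouse ran from 290861 UMIs in 129 cells (normal 1) to 12570644 UMIs in 3639 cells (food-deprived 1). Named neurons numbered 2297, from 19 in normal 1 to 499 in food-deprived 1. Libraries fell into 9 with Gapdh at 4.36 to 8.53 CPM (the usual scaling of UMI counts to the same total in every sample) and 8 with Gapdh at 151 to 811 CPM. Both kinds occur in batches 1 and 2, while the mice of batches 0, 3 and 4 hold the second kind alone. Intervals below cover counting error only.

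The 5 genes differed widely in the number of transcripts captured. Sst gave 22373 UMIs in 939 cells, Sstr1 1815 UMIs in 1156 cells, Sstr2 86 in 79 cells, Sstr3 81 in 73 cells and Sstr4 4 in 4 cells. Sst was therefore concentrated in few cells, with up to 819 UMIs in 1 cell, and Sstr1 was spread over many, with at most 12. Named neurons held 81.1% of the Sst UMIs and 28.8% of the Sstr1 UMIs. They held 12483958 of the 46904254 UMIs of all genes, so that the Sstr1 share was close to that of all genes.

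Sst was highest in 1 glutamatergic cluster and a few GABAergic clusters. Cluster names are the authors' (GABA, Glu and so on), and levels are CPM over the UMIs of the cluster in a mouse, over mice with at least 5 cells there. In Glu15, a cluster of 25 cells, normal 4 held 30091 CPM, the only mouse with 5 cells. The other 5 mice with such cells had 3 or 4 each, at 8284 and 22013 CPM in normal 3 and 5 and at 27667, 26917 and 23791 CPM in food-deprived 1, 2 and 3. Pooled over mice, Glu15 stood at 25363 CPM and held 33.6% of all Sst UMIs in 0.175% of the cells.

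GABA14 followed at 9044 ± 2024 CPM (SD, n = 5 mice; 71 cells). Its level was 6217 CPM in normal 4, 10480 in normal 5, and 10485, 7560 and 10480 in food-deprived 1, 2 and 3. Normal 3, whose 4 cells are outside this mean, stood lower, at 3079 CPM. The mice of both groups overlapped. GABA5 came next at 4886 ± 6776 CPM (n = 4; 73 cells), with 3267 CPM in normal 3, 124 in normal 4, 14862 in food-deprived 1 and 1291 in food-deprived 2. Its spread between mice was larger than its mean.

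GABA1 stood at 3971 ± 1875 CPM (n = 3), GABA18 at 3009 ± 4727 CPM (n = 3) and GABA15 at 1296 ± 694 CPM (n = 5). In GABA18, 1 cell held 92.0% of the Sst UMIs. GABA5, GABA1 and GABA18 did not differ from each other beyond their spread. Glu15 in every mouse with 3 or more of its cells except normal 3 lay above GABA14 in every mouse. Below these clusters came GABA6 (774 ± 431 CPM, n = 4), Glu4 (741 ± 774, n = 4), GABA3 (227 ± 254, n = 2) and Glu7 (210 ± 93.0, n = 6).

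**Figure D1:**
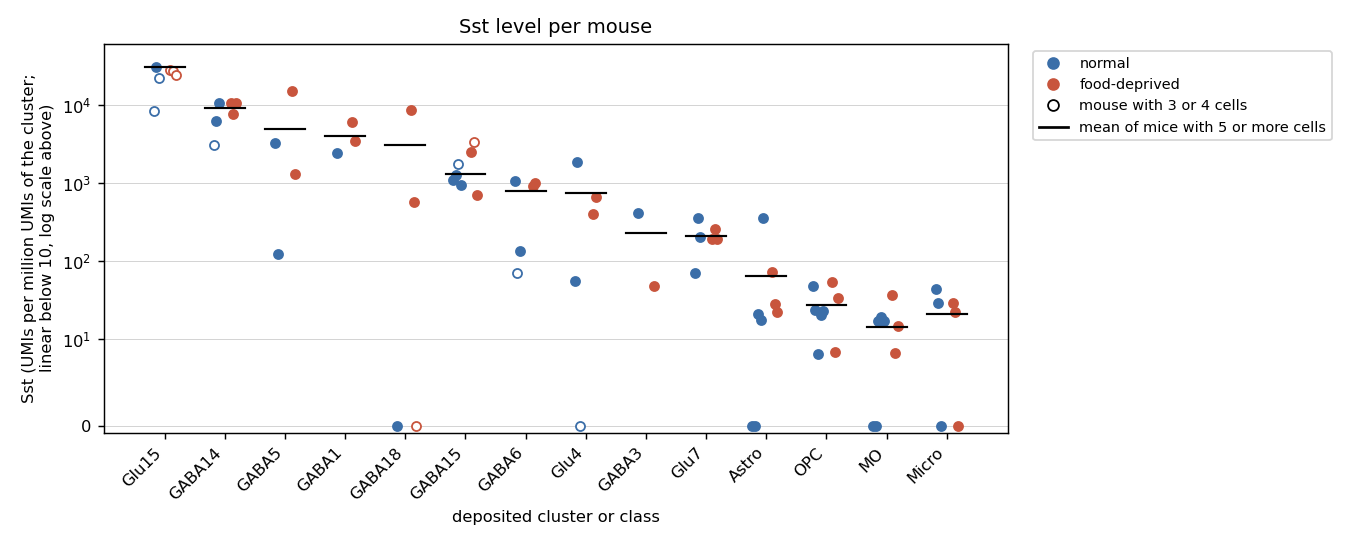
Sst level in each mouse (CPM of the cluster, linear below 10 and log scale above) by deposited cluster or class. Filled points are mice with at least 5 cells, open points mice with 3 or 4, blue normal and red food-deprived, and bars are means over filled points: Glu15 and GABA14 lie highest, GABA5 spreads from 124 to 14862 CPM, and the non-neuronal classes Astro, OPC, MO and Micro lie near the bottom.

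The Sst clusters differed in the other transmitter and peptide genes they carried. Among genes of a fixed list of peptides and transmitter markers, GABA14 held at least 500 CPM of Gad2, a GABA-synthesizing enzyme (597 ± 154 CPM), and of Slc32a1, the vesicular GABA transporter (523 ± 143 CPM). GABA5 held Npy, which encodes neuropeptide Y, at 3081 ± 3635 CPM, the enkephalin precursor Penk at 936 ± 634 CPM, and Gad2 at 1679 ± 190 CPM. Its Npy, like its Sst, varied between mice by more than its mean. GABA1 held Pvalb, the calcium-binding protein parvalbumin, at 3394 ± 1320 CPM and Gad2 at 3066 ± 109 CPM. Its Slc32a1, at 1374 ± 296 CPM, lay above that of GABA14. Glu15 held the glutamate transporter gene Slc17a6 at 280 CPM pooled over mice and also Gad2 at 165 CPM. In normal 4, its best sampled mouse, Slc17a6 stood at 283 CPM, Gad2 was at 0, and Cartpt, the precursor of the CART peptide, at 631 CPM. GABA15, the cluster of Npy and Agrp, carried Sst in 44 of its 112 cells.

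Within most of these clusters Sst was carried by part of the cells. In Glu15, 24 of 25 cells had Sst, with a median of 240 UMIs per cell. In GABA14, 22 of 71 cells had none and 40 had at least 10 UMIs. In GABA5, 51 of 73 cells had none, and the top 5 cells held 67.7% of the cluster's Sst UMIs. Taking 10 UMIs as a limit, 142 neurons (6.18%) held 97.7% of all Sst UMIs in neurons. Of these, 104 were in GABA and 38 in Glu clusters, 14 clusters in all, led by GABA14 with 40, GABA15 with 27, Glu15 with 23, GABA5 with 15 and GABA1 with 10. Among the 142 cells, 85 had a UMI of Gad2, 40 of Slc17a6 and 54 of Npy. At the highest, Sst made up 8.02% of a cell's UMIs, in GABA5. Of the 142, 16 have a barcode that ends in an unread base, and 2 pairs differ by 1 lost base.

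**Figure D2:**
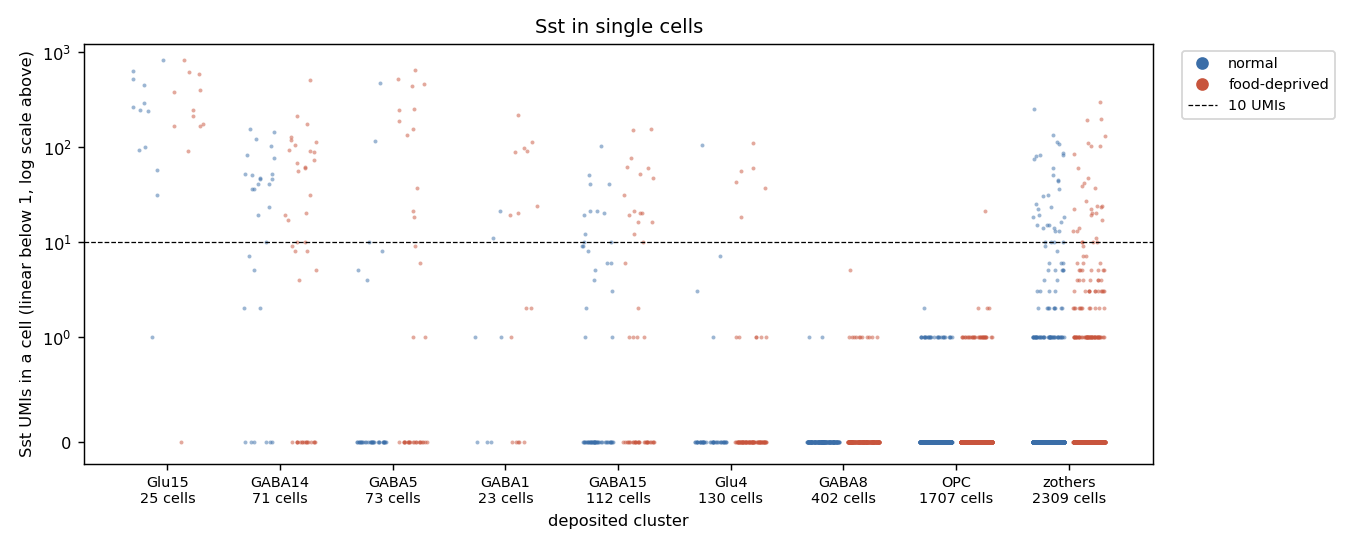
Sst UMIs in each cell (vertical axis, linear below 1 and log scale above) by deposited cluster, with the number of cells under each name; points are cells, blue from normal and red from food-deprived mice, and the dashed line marks 10 UMIs. Nearly all Glu15 cells lie above the line, GABA14 and GABA5 split into cells at 0 and cells with many UMIs, and in OPC and GABA8 almost every cell lies below it.

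In named non-neuronal cells Sst was low. The share of cells with at least 1 Sst UMI was 3.49% in MO (3501 cells, median 2195 UMIs), which carry genes of myelinating oligodendrocytes, and 3.81% in OPC (median 2020 UMIs), against 15.4% in GABA (median 3842 UMIs) and 11.1% in Glu (median 4092 UMIs). With each cell thinned to 1000 UMIs the shares were 1.51% in MO, 2.01% in OPC, 10.6% in GABA and 6.66% in Glu. Of 9670 named non-neuronal cells, 4 held 10 or more Sst UMIs. Cells that the authors gave no cluster name (zothers, 2309 cells) stood at 361 CPM pooled, below the 477 CPM of all cells. They held 16.4% of all Sst UMIs, and 10183787 of the 46904254 UMIs of all genes. Sst was not seen in Hista, the histaminergic cluster, where 0 UMIs in 17 cells allow a level of up to 20.4 CPM.

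Sstr1 was distributed differently from its ligand. The OPC cluster, which carries the oligodendrocyte precursor genes Pdgfra at 1293 ± 258 CPM and Cspg4 at 521 ± 158 CPM (n = 8 mice), held 812 of the 1815 Sstr1 UMIs (44.7%) and 8.12% of the UMIs of all genes. Sstr1 in OPC was 335, 189, 231, 218 and 140 CPM in normal 1 to 5 and 198, 221 and 214 CPM in food-deprived 1 to 3, with a mean of 218 ± 55.0 CPM (n = 8). It was present in each mouse, and the groups overlapped. A UMI was found in 33.4% of OPC cells (95% exact binomial interval 31.2 to 35.7%; 18.3% after thinning), 6.71% of IMO cells (median 3716 UMIs) and 0.343% of MO cells (0.177 to 0.598%), although the median depth of MO, 2195 UMIs, was slightly above the 2020 of OPC. Pooled levels along these 3 oligodendrocyte-lineage clusters were 213, 16.3 and 2.31 CPM.

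Among neurons Sstr1 was highest in GABA14, the cluster with much Sst. Its level was 251 and 400 CPM in normal 4 and 5 and 245, 343 and 340 CPM in food-deprived 1, 2 and 3, a mean of 316 ± 66.4 CPM (n = 5). OPC and GABA14 overlapped over mice. Glu1 (191 ± 155 CPM, n = 2), GABA12 (118 ± 92.7, n = 6) and Glu11 (114 ± 31.3, n = 3) followed. Next were Glu13 (96.9 ± 39.6, n = 2) and Glu2 (94.9 ± 79.8, n = 2). POPC, a non-neuronal class of precursor cells, stood at 111 ± 166 CPM (n = 3). These clusters and POPC did not differ beyond their spread. In Hista, Sstr1 stood at 109 CPM pooled, from 16 UMIs in 17 cells. All neurons together held 523 Sstr1 UMIs, of which GABA14 gave 21.0%.

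**Figure D3:**
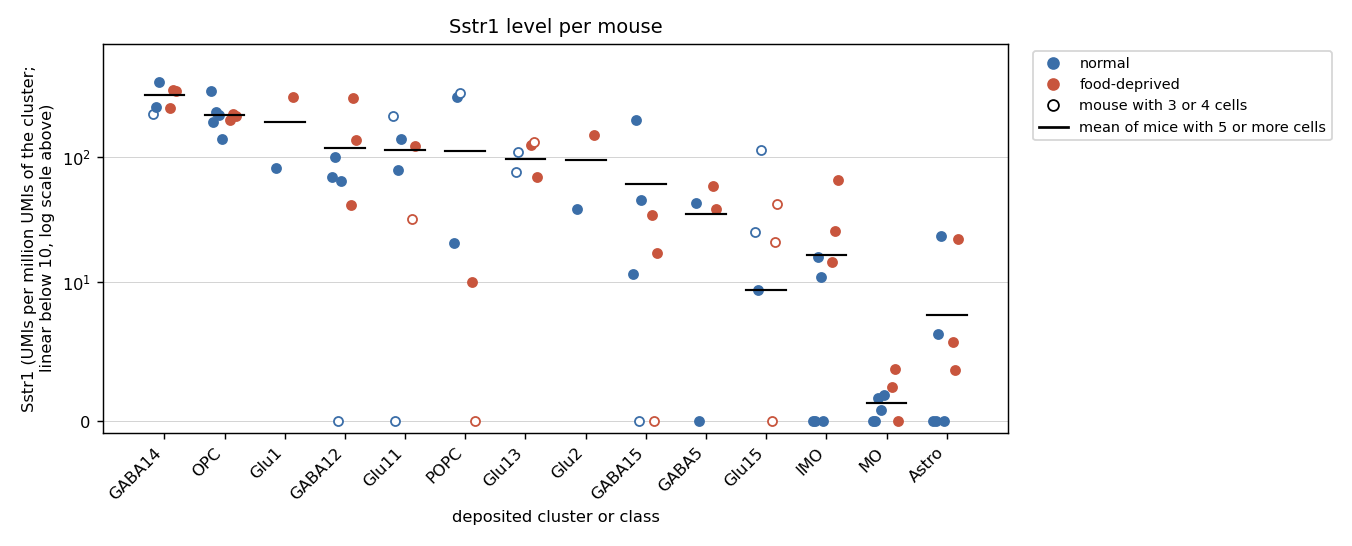
Sstr1 level in each mouse (CPM of the cluster, linear below 10 and log scale above) by deposited cluster or class. Filled points are mice with at least 5 cells, open points mice with 3 or 4, blue normal and red food-deprived, bars are means over filled points: GABA14 and OPC are high in every mouse, MO lies near 0, and Glu15, the cluster with most Sst, lies low.

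Sst and Sstr1 met in the same cells of GABA14. Of its 40 cells with at least 10 Sst UMIs, 29 (72.5%) had a UMI of Sstr1, at 343 CPM and a median depth of 4619 UMIs. Of its other 31 cells, 14 (45.2%) had one, at 257 CPM and a median depth of 2339 UMIs. In Glu15 4 of 23 such Sst cells had Sstr1, at 13.95 CPM, although their median depth was 10783 UMIs. Of the 2 other cells of Glu15, 1 had Sstr1, at 106 CPM and a median depth of 4736 UMIs. These are too few cells to compare. In GABA5 the count was 4 of 15, at 51.3 CPM against 43.5 CPM in its other cells. In GABA15 it was 5 of 27, at 84.7 against 26.5 CPM, and in GABA1 3 of 10, at 79.7 against 31.8 CPM. Over all neurons Sstr1 was at 102 CPM in the 142 cells with much Sst and at 35.2 CPM in the others. The 142 include the 40 cells of GABA14 at 343 CPM, and this comparison is not split by cluster. The cells of a mouse are not replicates, and no test was made of these counts.

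The other receptors were near the limit of detection. Of 86 Sstr2 UMIs, 46 lay in named neurons, 25 of them in GABA and 20 in Glu clusters, and 32 in cells with no cluster name. Its highest mean, 55.3 ± 85.6 CPM (n = 3), was in GABA11, the cluster with Ghrh (growth hormone releasing hormone), and 5 of its 6 UMIs came from 3 cells of food-deprived 1. Normal 5, with 12 cells of GABA11, had none, which allows up to 57.5 CPM. In Glu11 all 6 Sstr2 UMIs came from normal 4 (118 CPM). The remaining clusters among the top 5 were Glu5 (21.4 ± 43.6 CPM, n = 6), Glu1 (20.3 ± 28.8, n = 2) and GABA14 (13.8 ± 15.6, n = 5). No order of clusters in Sstr2 exceeds the spread between mice.

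Sstr3 gave 81 UMIs, 41 of them in cells with no cluster name, which held 10183787 of the 46904254 UMIs of all genes. Among the 39 in named neurons, 32 lay in Glu and 7 in GABA clusters, while Glu clusters held 43.1% of the UMIs of all genes in neurons. The 5 highest means were 15.5 ± 20.2 CPM in Glu5 (n = 6), 14.4 ± 13.0 in GABA1 (n = 3), 11.1 ± 15.6 in Glu9 (n = 2), 10.82 ± 10.01 in Glu11 (n = 3) and 7.31 ± 12.1 in Glu4 (n = 4). These overlap within their spread. Sstr4 was seen as 1 UMI each in GABA6, Glu5, Epith1 and an unnamed cell, so that no cluster can be placed above another. Sstr5 gave 87 UMIs and Cort 42, of which 38 and 18 lay in named neurons.

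The genes whose level over the 28 neuronal clusters with at least 20 cells was most like that of a member are given as a description. The points share libraries and differ in depth. For Sst the highest Pearson correlations of log2(mean CPM + 10), among 8036 genes, were those of St6galnac5 (0.68), Ano4 (0.65), Cyc1 (0.65), Bcl2 (0.63) and Vezt (0.62). For Sstr1 they were Kbtbd2 (0.70), Ttc21b (0.66), Aldh3b2 (0.65), Actr1b (0.59) and Tbx3 (0.57). For Sstr2 they were E2f6 (0.71), Gspt1 (0.70), Crtac1 (0.68), Ghrh (0.65) and Mad2l1 (0.63). With ranks (Spearman) 6 of these values moved by over 0.1, to 0.35 for Ano4, 0.43 for Cyc1, 0.44 for Tbx3, 0.59 for E2f6, 0.31 for Ghrh and 0.48 for Mad2l1. The Sstr2 values themselves rest on few UMIs. Sstr3 and Sstr4 did not reach 50 CPM in any cluster and were not ranked.

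Food deprivation was compared with normal feeding over mice, on counts summed per mouse and class. A class sum cannot tell more Sst cells from more Sst per cell. Mice with fewer than 20 cells of a class were left out, which removed normal 1 from neurons, GABA and OPC and normal 1 and 2 from Glu. In all neurons Sst was 608, 607, 2533 and 757 CPM in normal 2 to 5 and 2684, 875 and 1055 CPM in food-deprived 1 to 3, here scaled to library totals adjusted by the trimmed mean method (TMM). Normal 4 and food-deprived 1 lay far above the rest, and the groups overlapped. The log2 change was 0.42 ± 0.52 (SE; edgeR quasi-likelihood F test, unadjusted p = 0.438, adjusted p = 1). Within batch 1 it was 2.15 and within batch 2 -1.53, each from 1 mouse per group. No gene passed an adjusted p of 0.05 in all neurons (0 of 10923 tested, 0%; 232 at an unadjusted p under 0.05; DESeq2 called 0 as well), and none of the 3 members tested there was called.

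The 2 high values came from different clusters. In normal 4, Glu15 gave 2309 of the 2618 Sst CPM of its neurons (88.2%), from 7 cells. In food-deprived 1, GABA5 gave 1024 CPM, Glu15 662, GABA14 377 and GABA15 196. In food-deprived 2, Glu15 gave 476 of 873 CPM, and in food-deprived 3 GABA14 gave 490 and Glu15 428 of 1020 CPM. In normal 3, GABA5 gave 302 of 629 CPM, in normal 5 GABA14 gave 467 of 715 CPM, and in normal 2, with 41 neurons, GABA15 gave all 610 CPM. Without the cells of Glu15 the log2 change of Sst in all neurons was 1.01 ± 0.47 (edgeR quasi-likelihood F test, adjusted p = 1), and without food-deprived 1 as well it was -0.00078 ± 0.31.

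**Figure D4:**
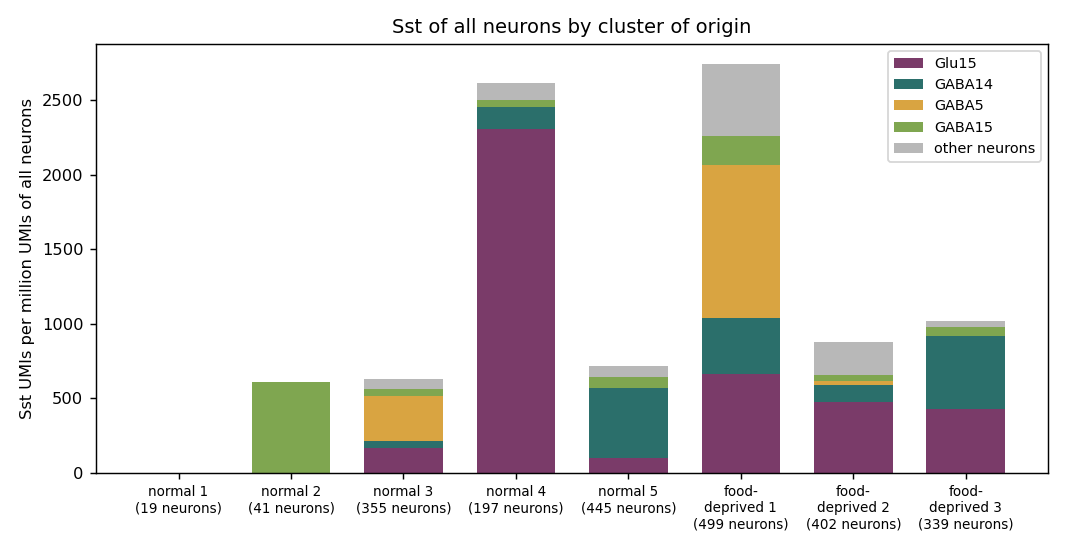
Sst CPM of all named neurons in each mouse (plain totals), stacked by the cluster the UMIs came from, with the number of neurons under each mouse. Normal 4 reaches 2618 CPM almost wholly through Glu15, food-deprived 1 reaches 2740 CPM through GABA5, Glu15, GABA14 and other clusters, and the other mice lie at 1020 CPM or below.

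In GABA neurons Sst was 732, 820, 377 and 1028 CPM in normal 2 to 5 and 3322, 610 and 1007 CPM in food-deprived 1 to 3, TMM-scaled. Food-deprived 1 stood alone, and the other mice overlapped. The log2 change was 1.12 ± 0.48 (edgeR, unadjusted p = 0.0396, adjusted p = 1.00; 0% of 9508 genes called), and it was 0.10 ± 0.36 without food-deprived 1. In the libraries with low Gapdh alone, with batch as a block and 2 mice per group, it was 1.75 ± 0.15 (edgeR, adjusted p = 5.26e-26), 1 of 22 genes called among 9454 (0.233%). That fit rests on 1 mouse per group in each batch. Its SE and p are therefore a poor measure of the spread between mice. With batch as a block over all libraries it was 1.37 ± 0.28 (edgeR, adjusted p = 0.812). In Glu neurons Sst was 371, 5410 and 412 CPM in normal 3 to 5 and 1792, 1195 and 1124 CPM in food-deprived 1 to 3. The change was -0.61 ± 0.82 (edgeR, adjusted p = 1.00; 0% of 8945 genes called). Its sign rested on normal 4: without that mouse it was 1.80 ± 0.23 (unadjusted p = 3.35e-05, adjusted p = 0.315), and without the cells of Glu15 it was 0.20 ± 0.57. The Glu response minus the GABA response, tested within mice, was -0.17 ± 0.92 (edgeR, adjusted p = 1; 0% of 10012 genes called).

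The pooled sum of all annotated cells gave a log2 change of Sst of 0.59 ± 0.77 (edgeR, adjusted p = 1; 0% of 14143 genes called). In the 3 other classes where Sst passed the filter on low counts the values were 0.95 ± 0.53 in OPC, 0.38 ± 0.45 in MO and -0.75 ± 0.45 in Epith, which carry endothelial genes (edgeR, adjusted p of 1.00 in each; 0% called). In OPC, food-deprived 1 had 54.5 CPM of Sst and the other 6 mice 8.37 to 33.0 CPM, and without it the OPC change was -0.35 ± 0.67. Of its 47 Sst UMIs in OPC, 21 lay in 1 cell. The same mouse had the most Sst in neurons. Summed markers of myelinating oligodendrocytes in neurons were 246 to 1063 CPM in the food-deprived and 313 to 753 CPM in the normal mice, and those of pituitary cells 9.47 to 193 and 1.45 to 36.3 CPM, with Prl and Gh at 0. Their part in these values was not tested.

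Within clusters the numbers of cells were small. With at least 10 cells per mouse, Sst could be tested in GABA15 (0.62 ± 0.55, 2 mice per group), Glu4 (-0.67 ± 0.83, 2 per group) and Glu7 (0.59 ± 0.42, 2 normal and 3 food-deprived), with adjusted p-values of 0.999, 0.982 and 1.00 (edgeR; 0% of genes called in each). Without normal 4, which leaves 1 normal mouse assumed to vary like the others, Glu4 gave 3.28 ± 0.45 (edgeR, adjusted p = 0.00909; 13 of 6051 genes called). Without food-deprived 1, GABA15 gave -0.56 ± 0.65. With at least 5 cells, GABA14 gave 0.15 ± 0.24 (edgeR, adjusted p = 0.988; 0% of 1695 genes called). GABA5 gave 2.21 ± 0.48 with 2 mice per group (edgeR, adjusted p = 0.00935), 1 of 4 genes called among 2855 (0.14%). Of its 4 values, listed above, the food-deprived one was the higher within each of batches 1 and 2, while normal 3 of batch 1 lay above food-deprived 2 of batch 2. The top 5 cells hold most of the cluster's Sst UMIs.

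**Figure D5:**
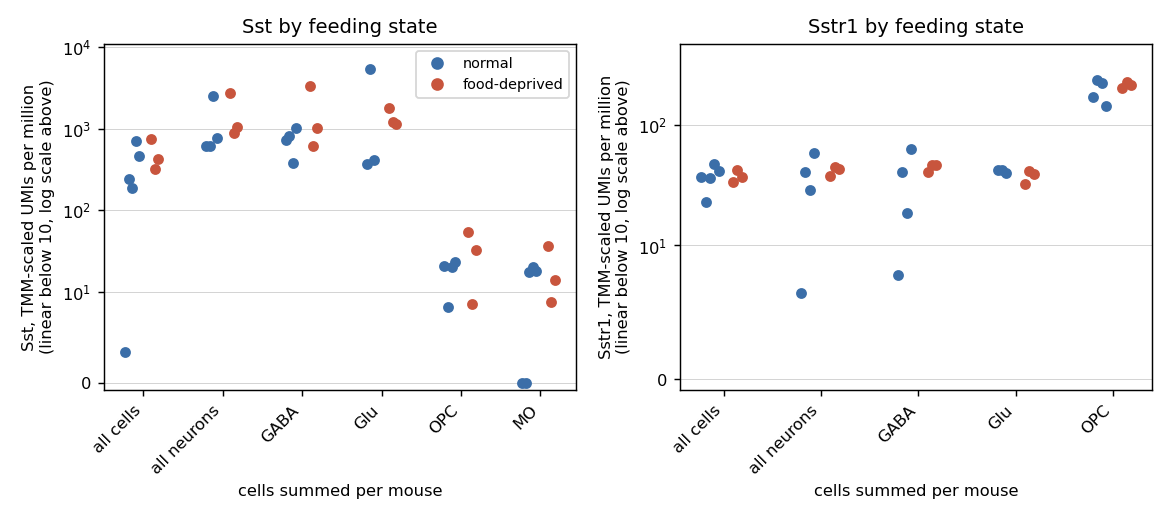
TMM-scaled level of Sst (left) and Sstr1 (right) in each mouse (linear below 10, log scale above), for all cells, all neurons and the classes tested; points are mice, blue normal and red food-deprived. The groups overlap in each class shown, Sst runs from 377 to 3322 CPM in GABA and from 371 to 5410 CPM in Glu, and Sstr1 in OPC stays between 145 and 234 CPM.

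The receptor genes showed no change past the threshold. Sstr1 in all neurons was 6.47, 40.8, 28.7 and 58.3 CPM in normal 2 to 5 and 37.4, 44.4 and 43.0 CPM in food-deprived 1 to 3, where the value of normal 2 is 1 UMI. The log2 change was 0.05 ± 0.30 (edgeR, adjusted p = 1). In OPC, Sstr1 was 169, 234, 223 and 145 CPM in normal 2 to 5 and 202, 227 and 214 CPM in food-deprived 1 to 3, a change of 0.07 ± 0.22 (edgeR, adjusted p = 1.00; 0% of 9265 genes called, 291 at an unadjusted p under 0.05). Its values were 0.18 ± 0.37 in GABA, -0.17 ± 0.23 in Glu and -0.06 ± 0.20 in all cells. Sstr2 gave -0.41 ± 0.71 in all neurons and -0.41 ± 0.58 in all cells, and Sstr3 0.17 ± 0.46 in all cells (edgeR, adjusted p = 1 in each). Without food-deprived 1 the Sstr2 values were -1.16 and -0.91. Sstr4 passed the filter nowhere.

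The share of neurons that carried Sst overlapped between the groups. After thinning to 1000 UMIs, 7.32, 5.57, 11.1 and 8.08% of the neurons of normal 2 to 5 and 14.3, 7.39 and 7.62% of those of food-deprived 1 to 3 had an Sst UMI. The means were 8.02 ± 2.31% and 9.77 ± 3.92% (SD, n = 4 and 3; two-sided exact permutation test, p = 0.514, adjusted over the 5 members p = 1). For Sstr1 they were 3.80 ± 2.55% and 3.66 ± 1.33% (exact permutation p = 0.914). The smallest p this design allows is 0.0571. Without thinning, the shares for Sst were 13.8 ± 4.60% and 14.4 ± 5.56%.

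Genes that act with somatostatin and its receptors were followed in lists. None passed the threshold in all neurons, GABA, Glu or OPC, as with every gene tested there. Among the receptors' G proteins and effectors in all neurons, 22 of 26 could be tested, 12 with values above 0, at a median log2 change of 0.02, beside -0.00016 for all genes. The Go subunit gene Gnao1 stood at 0.08 ± 0.15 and the potassium channel gene Kcnj9 at -0.06 ± 0.19. Of 15 peptide processing and granule genes, 15 were tested, 8 above 0 (median 0.10). Of 12 genes of the growth hormone axis and related hormones, 7 were tested, 2 above 0 (median -0.31). The listed genes with the smallest unadjusted p in all neurons were Pvalb (1.88 ± 0.50), Igf1 (-1.33 ± 0.43), the gene of insulin-like growth factor 1, and Vip (1.66 ± 0.56), in GABA Pvalb, Vip and Oxt, in Glu Igf1 (-1.50 ± 0.43) and Sim1 (-1.37 ± 0.47), and in OPC Avp (1.69 ± 0.42), Cadps (-0.84 ± 0.28) and Oxt (-1.34 ± 0.51), with adjusted p of 1.00 for each (edgeR).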

How the data were processed

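The authors deposited raw UMI counts per gene and barcode for each library, a merged count table of annotated cells, and 1 cluster name per cell. The build is mm9 per the submitters' processing notes, and no aligner or counting program is stated in the labels. Cells were joined to libraries by batch, feeding state and barcode, and all joined cells have the merged table's counts. The replicate is the mouse, with all its libraries summed. UMIs were summed per mouse and class (at least 20 cells) or cluster (at least 10), and tested with edgeR 4.0.16 (R 4.3.3; TMM, filterByExpr, quasi-likelihood F test, Benjamini-Hochberg at 0.05). The SE of a log2 change is that implied by the F statistic. Shares were compared by exact permutation (SciPy). Scripts were tested on simulated data. Alternatives included DESeq2 1.42.0, batch as a block, other cell minimums and leaving out each mouse. Batch numbers in the labels pair normal 3 with food-deprived 1 and normal 4 with food-deprived 2. No doublet caller was run. Cluster names were taken as deposited. Genes were named by rule: the members, their 5 highest clusters and 5 most alike genes, listed peptides of at least 500 CPM, and the 3 listed genes with smallest p per class. 1 gene named by this rule in Glu is not reported here. The members, lists and clusters were chosen with earlier results of these data known.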

Additional observations from a re-analysis of the deposited data

Results flagged for a closer look

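In 16 groups of 4 or 5 normal mice examined for a mouse far from the others, 3 were found, where chance gives about 1 in 20. The groups share cells and the mice differ in their numbers of cells, so that rate is a rough guide only. Sst in all neurons was 2533 CPM in normal 4 and 607 to 757 CPM in the other 3 mice, and Glu15 supplied most of it. The share of thinned neurons with Sstr1 was 0% in normal 2, whose 41 neurons allow little, and 4.76 to 5.46% in the others. The share with Sstr3 was 2.44% in the same mouse, which is 1 neuron, and 0 to 0.310% in the others. Their causes were not tested.

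Among the cells with no cluster name, which enter the tests above only within the sum of all cells, 65 of 2309 held at least 10 Sst UMIs (2.82%, 95% exact binomial interval 2.18 to 3.57%). They came from 6 of the 8 mice, 8, 6 and 20 from normal 3 to 5 and 16, 8 and 7 from food-deprived 1 to 3. Of the 65, 59 had a UMI of the neuronal gene Snap25, 45 of Gad2, 12 of Slc17a6, 15 of Sstr1 and 10 of Npy.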

How the results depend on the processing

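Of 338 alternative values over 25 changes and differences, 292 kept their direction and side of the threshold, 45 changed sign and 1 passed the threshold. That one is Sst in GABA, 1.75 in the low-Gapdh libraries with batch as replicate block. Of those that changed sign, Sst in Glu4 without normal 4 also passed it (3.28). With no filter on low counts, Sst passed in GABA13 (3.61) and Glu5 (3.21), which the filter had left out, each from 1 cell with 10 or more UMIs. The genes called there were 7 of 13590 (0.0515%) in GABA13 and 5 of 13418 (0.0373%) in Glu5. No change was past the threshold to begin with.

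Leaving out each mouse in turn moved Sst between -0.25 and 1.21 in all neurons, 0.10 and 1.52 in GABA, -1.12 and 1.80 in Glu, -0.35 and 1.62 in OPC, -0.56 and 1.26 in GABA15 and -1.69 and 3.28 in Glu4. The difference between Glu and GABA moved between -1.32 and 1.28 for Sst and -0.741 and 0.0490 for Sstr1. Sstr1 moved between -0.0905 and 0.353 in all neurons, -0.0532 and 0.162 in OPC, -0.0669 and 0.659 in GABA and -0.142 and 0.0632 in all cells, Sstr3 in all cells between -0.0651 and 0.381, and Sstr2 between -1.16 and -0.21 in all neurons and -0.91 and -0.17 in all cells. The difference in the share of neurons moved between -0.514 and 2.94 percentage points for Sst, -1.40 and 0.624 for Sstr1 and -0.565 and 0.248 for Sstr3. The sign of Sstr1 turned without normal 4 (0.0632 in all cells, -0.0905 in all neurons, -0.0669 in GABA and 0.0490 for the Glu and GABA difference), food-deprived 1 (0.0420 in all cells), normal 2 (-0.0544 in all neurons) or normal 5 (-0.0532 in OPC), and that of its share without food-deprived 3 (0.624), normal 3 (0.249), normal 4 (0.185) or normal 5 (0.419). Without food-deprived 1 the Glu and GABA difference of Sst was 0.35.

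Within batches 1 and 2 (1 mouse per group, no test) Sst was 1.98 and -1.14 in all cells, 2.15 and -1.53 in all neurons, 2.70 and -1.23 in OPC, 1.06 and -1.18 in MO, 2.27 and -2.18 in Glu, 2.86 and -1.19 in Glu4, and 2.02 and 0.69 in GABA. Sstr1 was -0.12 and 0.63 in all neurons and -0.22 and 0.03 in OPC, and Sstr2 0.74 and -1.58 in all cells and 1.46 and -1.78 in all neurons. In the high-Gapdh libraries Sst was -0.28 and Sstr1 -0.0082 in all neurons. In the low-Gapdh libraries with batch as replicate block Sstr1 in OPC was -0.10 and Sstr2 in all neurons 0.26. With batch as replicate block, the pairing of mice given by the labels, Sst was 0.28 in all neurons and 0.35 in Glu4, and Sstr1 -0.10 in OPC. The block raised the genes called from 0 to 20 in all cells, 8 in all neurons, 3 in Glu and 18 in OPC, no member among them. With at least 50 cells Sstr1 in all neurons was -0.0544. Without Glu15, an alternative chosen after seeing the data, Sst in Glu was 0.20. The share difference for Sstr1 was 2.01 not thinned, 0.0502 at 500 UMIs and 0.0125 at 10 UMIs per cell, for Sstr2 -1.98 not thinned, and for Sstr3 0.263 not thinned and 0.303 at 500 UMIs. The cause was not tested for any of these. Depth limits Sstr2, Sstr3 and Sstr4 most, at 86, 81 and 4 UMIs.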
